A study of Mus musculus with 12 samples.

Results

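Extracellular vesicle miRNAs were compared between the PLL and aFM groups of a small RNA study of mesenchymal stem cells grown from mouse bone marrow. The members were chosen by group name: the 3 PLL and the 3 aFM libraries, 6 of the 12 libraries in all. Within them, the 1978 annotated mouse miRNA entries of the deposited count table were used, and 432 of these had a count in a PLL or aFM library. Of the 1978 entries, 132 passed the filter on low counts and were tested.

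The cells came from the bone marrow of specific-pathogen-free C57BL/6 mice, and the labels give all 12 libraries the same treatment, an intervention with antigen. The series' design text names exposures to ESPs, HCF or pLL at 2 µg/ml for 48 hours, followed by ultracentrifugation of the culture supernatant, Trizol extraction and a small RNA library kit. The labels do not say what aFM stands for or what that group received, and tie the PLL libraries to the pLL exposure only through the name. No group is called untreated, so aFM served as the reference of a contrast and not as a control. No number of animals or cultures is given, and the labels say of no replicate that it was a separate culture, so p-values measure the spread between libraries, which may be technical.

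miRNAs are short RNAs that load into Argonaute proteins and pair with messenger RNAs mainly through the seed, bases 2 to 8 from the 5′ end, which lowers the stability and translation of those messages. Cells release some of their miRNAs in extracellular vesicles, and mesenchymal stem cells are known for vesicles that act on immune cells and on bone-forming cells. A vesicle count profile gives shares of the RNA recovered, and a larger number of vesicles of a kind cannot be told apart from more of a miRNA in each vesicle.

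The mature sequences of the called miRNAs that had one in the source used are shown first, since their seeds and their closest relatives are compared further on. Of the 132 tested miRNAs, 109 (82.6%) matched a mature sequence in the part of RefSeq used here (build GRCm38.p6), and capitals mark the seed. That part did not cover every chromosome, so the share is not a match rate to all of RefSeq. The called miR-143-3p, miR-3960 and miR-23b-3p had no sequence there and are not shown. The first 7 were called higher in PLL and the next 2 lower.
miR-9-5p: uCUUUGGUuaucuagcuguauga
miR-146b-5p: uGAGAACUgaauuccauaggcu
miR-221-3p: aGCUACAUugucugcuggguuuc
miR-23a-3p: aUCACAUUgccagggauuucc
miR-191-5p: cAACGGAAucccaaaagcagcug
miR-210-3p: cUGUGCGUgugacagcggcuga
miR-1895: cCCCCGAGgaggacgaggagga
let-7b-5p: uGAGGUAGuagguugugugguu
miR-411-5p: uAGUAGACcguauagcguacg

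Further miRNAs that did not pass the test and are described below are shown for comparison. miR-146a-5p, miR-222-3p and the let-7 members share a seed with a called miRNA above, and miR-27b-3p comes from the same precursor cluster as miR-23b-3p. miR-140-3p and miR-126a-3p share neither a seed nor a cluster with a called miRNA and were among the next in p.
miR-146a-5p: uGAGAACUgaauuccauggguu
miR-222-3p: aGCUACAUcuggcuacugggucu
let-7a-5p: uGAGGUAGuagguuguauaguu
let-7c-5p: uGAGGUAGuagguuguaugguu
let-7f-5p: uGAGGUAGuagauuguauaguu
let-7g-5p: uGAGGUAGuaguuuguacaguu
miR-27b-3p: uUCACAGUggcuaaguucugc
miR-140-3p: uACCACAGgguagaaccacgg
miR-126a-3p: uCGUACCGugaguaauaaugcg

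The PLL and aFM libraries held 68647 to 214303 counts, of which 22903 to 60436 were annotated. The annotated share was 60.7%, 29.2% and 41.7% in PLL replicates A, B and C, and 10.7%, 15.5% and 19.9% in aFM replicates A, B and C. No PLL library was as low as an aFM library. The mean was 43.9% ± 15.9 (SD, n = 3) in PLL and 15.4% ± 4.61 (SD, n = 3) in aFM, a difference of 28.5 percentage points, with a two-sided exact permutation p = 0.1, the smallest that 3 against 3 libraries can give. The other counts lay on predicted loci without a gene name. Levels below are CPM, counts per 1000000 annotated counts of a library scaled by TMM (trimmed mean of M-values), so they compare miRNAs with one another and say nothing of the amount of miRNA relative to other small RNA. A library with 0 counts of a miRNA allowed up to 3 counts, or 67.9 to 127 CPM, and this limit covers counting error only.

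PLL replicate A stood apart from the other PLL libraries. The chi-square statistic of its annotated counts per degree of freedom was 71.6 against replicate B and 64.6 against replicate C, whereas replicates B and C gave 5.73 and the pairs of aFM libraries 5.77 to 7.22. Of the 132 tested miRNAs, 26 were over 2-fold higher in replicate A than the mean of B and C, and 9 were over 2-fold lower, after adding 100 CPM to each level so that scarce miRNAs did not count. These counts and the folds below depend on the TMM factors, 0.731, 1.13 and 1.10 in PLL A, B and C. Such factors place A higher relative to B and C than shares of annotated counts do. By share, miR-148a-3p was at 12.7%, 5.07% and 4.53% in PLL A, B and C. miR-140-3p, a miRNA best known from cartilage, was at 99795, 5399.9 and 5122 CPM in PLL A, B and C, 19.0-fold higher in A than the mean of the other replicates. miR-140-5p from the same precursor was at 4144, 176 and 382 CPM, and miR-99a-5p at 94994, 16250.0 and 15335 CPM. Replicate A was therefore high for both arms of miR-140. Across the 109 miRNAs with a sequence, Spearman's rho between the GC content and the log2 ratio of A to B and C was -0.38, given as a description since these miRNAs share the same libraries. Results are given below with and without this library where it bears on them.

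**Figure D1:**
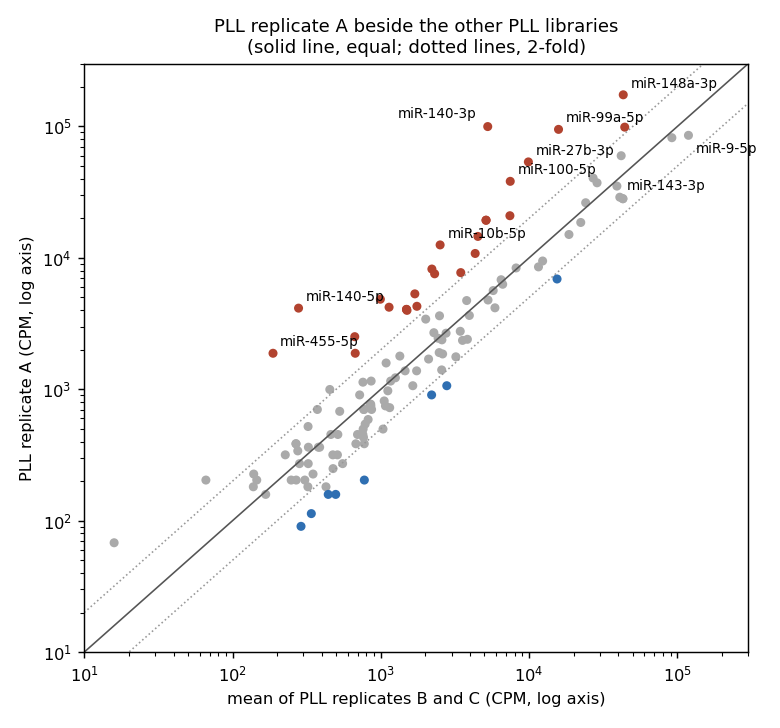
Level of each tested miRNA in PLL replicate A (vertical axis, CPM, log scale) against the mean of PLL replicates B and C (horizontal axis, CPM, log scale). Points are miRNAs, red where A was over 2-fold higher and blue where it was over 2-fold lower after adding 100 CPM, and 130 of the 132 tested have a value above 0 on both axes. miR-140-3p and miR-99a-5p lie far above the line of equality.

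Between PLL and aFM, 12 of the 132 tested miRNAs (9.09%) passed an adjusted p of 0.05 by edgeR's quasi-likelihood test with Benjamini-Hochberg adjustment. miR-9-5p, miR-146b-5p, miR-221-3p, miR-23a-3p, miR-23b-3p, miR-191-5p, miR-210-3p and miR-1895 were the 8 higher in PLL (6.06%). miR-143-3p, let-7b-5p, miR-3960 and miR-411-5p were the 4 lower in PLL (3.03%). In each of the 12 the PLL libraries did not overlap the aFM libraries. This held for 28 of all 132 tested in the upward direction (21.2%) and for 23 in the downward direction (17.4%). An unadjusted p below 0.05 was reached by 43 miRNAs, and the median log2 fold change of all 132 was 0.31. Where the predicted loci also entered the scaling and the fit, the median of the annotated miRNAs was 2.13, with 82 called higher and 2 lower.

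The count of calls rested on single libraries. Without aFM replicate A, 1 miRNA was higher and 4 were lower, without aFM replicate B 0 and 4, and without aFM replicate C 1 and 3. Without PLL replicate A, 5 miRNAs were higher and 7 lower, and 9 of these 12 were among the 12 called with all libraries. miR-143-3p, miR-3960 and miR-411-5p passed the test whichever of the 12 libraries was left out.

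**Figure D2:**
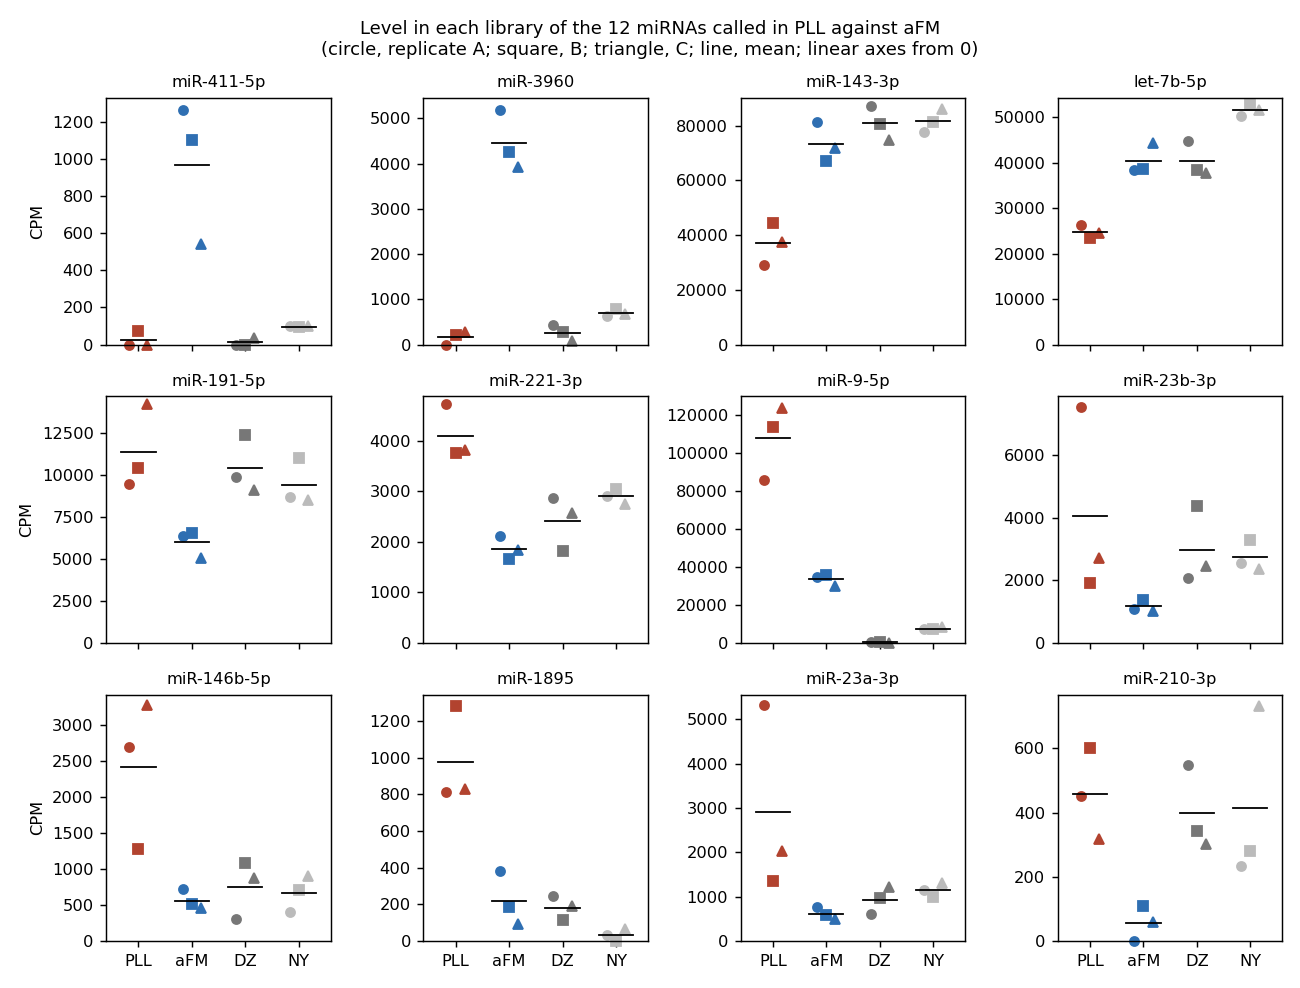
CPM (vertical axes, linear from 0) of the 12 called miRNAs in each library of the PLL, aFM, DZ and NY groups, ordered by fold change. Circles, squares and triangles are replicates A, B and C, and lines are group means (n = 3). In every panel the PLL points lie wholly above or wholly below the aFM points, and for miR-3960 and miR-411-5p the aFM libraries are above those of all other groups.

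miR-143-3p, a miRNA of smooth muscle and mesenchymal cells, was lower in PLL. Its level was 28939.8, 44254 and 37543 CPM in PLL A, B and C and 81347, 66951 and 71828 CPM in aFM A, B and C. Even the highest PLL library was below the lowest aFM library. It fell by 0.99 ± 0.17 on the log2 scale (SE; edgeR adjusted p = 0.00442), a 1.99-fold difference, whereas scaling on all entries gave 0.80, which is -1.33 relative to the median of the annotated miRNAs. In the groups outside this comparison it was at 74835 to 87066 CPM in DZ and 77569 to 85968 CPM in NY, so the PLL libraries were the low ones of all 12. miR-145a-5p, which comes from the same precursor cluster, had 31 counts over the PLL libraries and 2 over the aFM libraries. Its ratio was 11.3 (95% counting interval 2.87 to 97.3) in the other direction, with an edgeR adjusted p of 0.101. The opposite arm miR-145a-3p was at 498 to 980 CPM in PLL and 699 to 1096 CPM in aFM and did not pass either (log2 fold change -0.36, edgeR adjusted p = 0.497).

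let-7b-5p belongs to the let-7 family, which represses growth genes such as Ras and Hmga2 and marks differentiated cells. It was at 26268, 23559 and 24594 CPM in PLL and 38459.6, 38604 and 44269 CPM in aFM. The replicates within each group lay close together. It fell by 0.71 ± 0.15 on the log2 scale (SE; edgeR adjusted p = 0.0141), 1.63-fold, whereas scaling on all entries gave 1.15, or -0.98 relative to the median there. The call was lost without aFM replicate C (edgeR adjusted p = 0.0691) and kept without PLL replicate A (log2 fold change -0.82, edgeR adjusted p = 0.00312). It was also lost with upper quartile factors, without a filter and in a fit of the 6 PLL and aFM libraries alone, with edgeR adjusted p-values up to 0.111. DZ libraries held 37815 to 44874 CPM and NY libraries 50188 to 52755 CPM, above every PLL library.

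The let-7 seed GAGGUAG was shared by 9 tested miRNAs, of which let-7b-5p was the only one called. Their log2 fold changes ran from -0.71 to 0.77. The 9 tested members of the let-7 list had a median of -0.12, against 0.31 for all tested miRNAs. let-7c-5p was at 35167, 38201 and 39992 CPM in PLL and 48454, 50921 and 50736 CPM in aFM. The groups did not overlap, and the difference of -0.41 ± 0.14 (log2, SE) had an edgeR adjusted p of 0.0824, which became 0.0480 without PLL replicate A. let-7a-5p (-0.12 ± 0.19, log2), let-7f-5p (0.20 ± 0.19) and let-7i-5p (-0.14 ± 0.18) had overlapping libraries. let-7g-5p was at 20924, 7912 and 6936 CPM in PLL and 7422, 6765 and 6799 CPM in aFM, so that only PLL replicate A lay far above the aFM range (log2 fold change 0.77 ± 0.36, SE; edgeR adjusted p = 0.156).

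The let-7 sequences printed above differ outside the seed. Positions are counted from 1 at the 5′ end of let-7a-5p. let-7b-5p differs from it by A17G and A19G, let-7c-5p by A19G, let-7f-5p by G12A, and let-7g-5p by G12U and U18C. How the authors divided reads that fit several of these sequences is not given in the sources used here.

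Ratios of miRNAs within a library do not depend on how libraries are scaled. The 15 ratios computed here were chosen after their values were seen, so they are a description. Each exact permutation p was at best 0.1, or 0.136 after Benjamini-Hochberg adjustment over the 15. The ratio of let-7b-5p to let-7a-5p was 0.648, 0.828 and 0.961 in PLL and 1.13, 1.06 and 1.36 in aFM. let-7b-5p to let-7f-5p gave 0.705 to 0.843 in PLL and 1.32 to 1.76 in aFM. Against both let-7a-5p and let-7f-5p, let-7b-5p was thus the smaller partner in all 3 PLL libraries and the larger in all 3 aFM libraries. miR-143-3p to miR-21a-5p, both among the most abundant miRNAs, gave 0.353 to 0.519 in PLL and 0.854 to 1.24 in aFM. Of the 15 ratios, 7 were higher in every PLL library, 4 were lower in every PLL library and 4 overlapped.

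**Figure D3:**
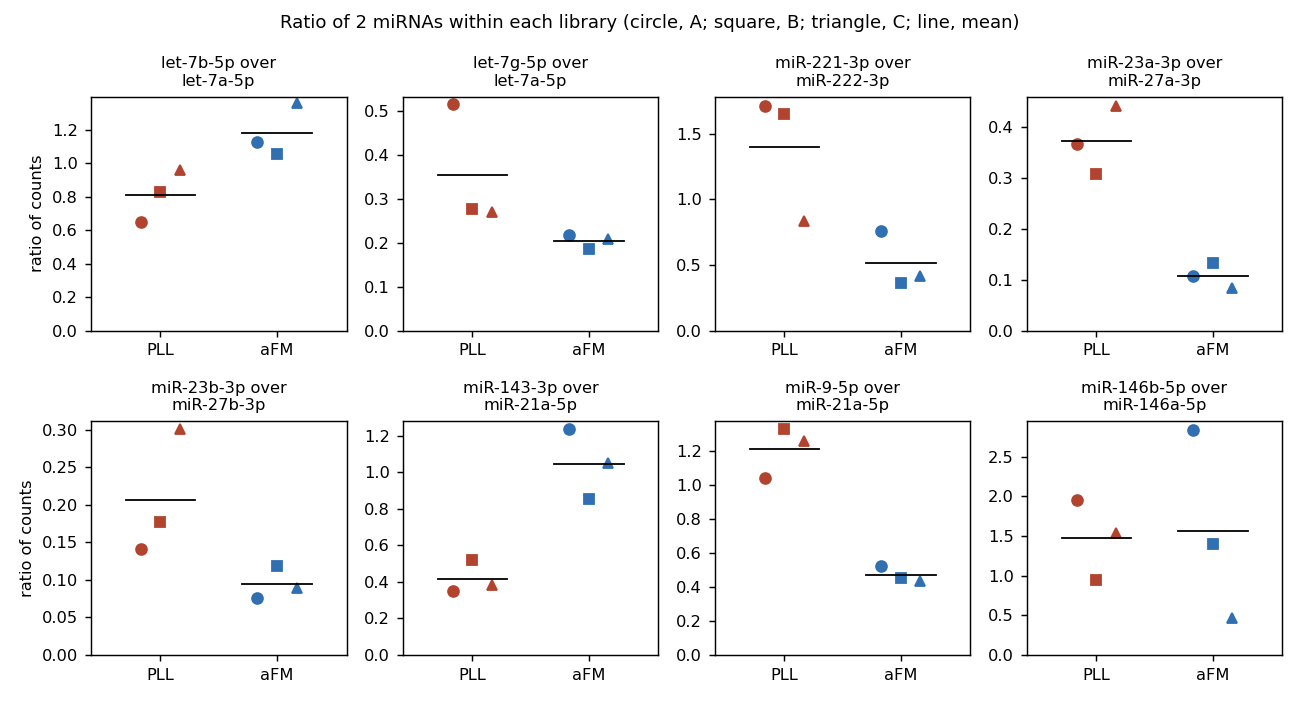
Ratio of the counts of 2 miRNAs within each library (vertical axes, linear from 0) for 8 of the 15 ratios, with circles, squares and triangles for replicates A, B and C and lines for group means (n = 3). let-7b-5p over let-7a-5p and miR-143-3p over miR-21a-5p lie lower in all PLL libraries, and miR-146b-5p over miR-146a-5p overlaps between the groups.

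miR-3960, which was described with miR-2861 as part of a loop with Runx2 that promotes osteoblast differentiation, showed the smallest p. It was at 0, 201 and 286 CPM in PLL and 5187, 4265 and 3928 CPM in aFM. This rests on 17 counts over the PLL libraries and 369 over the aFM libraries, a pooled ratio of 29.8 (95% counting interval 18.4 to 51.7). The fitted log2 fold change was -4.81 ± 0.74 (SE; edgeR adjusted p = 0.00401), and -4.25 without PLL replicate A, the library with 0 counts. DZ libraries held 75.8 to 427 CPM and NY libraries 629.8 to 776 CPM. The aFM libraries were therefore the high ones among the 12. miR-3960 is also on the list of late-registered entries, as is miR-1895 below. Of that list 6 were tested, 1 was called higher and 1 lower, against 6.06% and 3.03% of all tested. Its median log2 fold change was -1.31 against 0.31 for all tested.

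miR-411-5p lies in the imprinted Dlk1-Dio3 region on chromosome 12, which holds a large cluster of miRNAs expressed from the maternal chromosome. It had 0, 3 and 0 counts in PLL and 30, 30 and 18 counts in aFM. In CPM this was 0, 75.3 and 0 against 1265, 1103 and 544. The pooled ratio was 35.7 (95% counting interval 11.8 to 177), and the edgeR adjusted p was 0.00442. DZ libraries held 0 to 37.9 CPM and NY libraries 93.1 to 99.8 CPM. As with miR-3960, aFM was the group with a high level.

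The Dlk1-Dio3 list held 54 names, of which 35 had a count in a PLL or aFM library and 5 were tested. Of the 5 tested, 1 was called lower, miR-411-5p, and none higher. All 5 had negative log2 fold changes, with a median of -1.72 against 0.31 for all tested miRNAs, and 4 of 5 lay wholly below aFM, against 17.4% of all tested lying wholly below and 3.03% called lower. The 4 were miR-411-5p, miR-379-5p (226, 151 and 127 CPM in PLL, 337, 515 and 846 in aFM), miR-381-3p (181, 276 and 0 against 548, 699 and 816) and miR-409-3p (317, 377 and 573 against 1223, 1360.3 and 937). The edgeR adjusted p of the last 3 was 0.108, 0.101 and 0.134. miR-411-5p passed the low-count filter only through its aFM libraries, and miR-341-3p, higher in PLL, missed it. miR-379-5p (10, 6 and 4 counts in PLL) and miR-381-3p (8, 11 and 0) also reached the filter's depth-scaled cutoff in no PLL library. miR-409-3p (14, 15 and 18) reached it only in PLL replicates B and C. The direction of the tested members, and the 4 of 5 wholly below aFM, thus partly depend on that filter and are given as a description. The list's median relative to that of all tested miRNAs was -2.03 with all libraries, between -2.25 and -1.75 when a PLL library was left out, and -2.10 with scaling on all entries. The members tested were not the same in these fits. They were 5 with all libraries, 7, 7 and 8 without PLL A, B and C, and 7 with scaling on all entries. Without PLL C and with scaling on all entries, 1 member was called higher. Without a filter it was only -0.48, over 36 members of which 1 was called higher and 1 lower. With a minimum count of 30 it was -1.20, from 1 tested member. The summed level of the list was 4959, 3642 and 2863 CPM in PLL and 7253, 7500.3 and 8552 CPM in aFM, without overlap.

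Members of the cluster lay on both sides of the comparison. miR-341-3p, from the same list, had 30, 27 and 6 counts in PLL and 1, 0 and 0 in aFM, so that the pooled ratio was 45.9 (95% counting interval 7.94 to 1840). It had 0 counts in all DZ and NY libraries. It missed the filter, and in the fit without that filter its log2 fold change was 4.89 (edgeR adjusted p = 0.0181), higher in PLL. miR-134-5p, also from the list, had 5, 3 and 10 counts in PLL and 0 in every aFM library, at least 4.37-fold higher against 3 counts over the aFM group, and did not pass without the filter (edgeR adjusted p = 0.221). Among the 18 members with at least 10 counts over the 6 libraries, 5 had the higher pooled level in PLL and 13 in aFM. The 5 tested members thus show only a piece of the cluster.

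miR-9-5p, a miRNA of neural cells that is also induced by NF-kB signalling in myeloid cells, was the most abundant of the called miRNAs. Its level was 85597, 113851 and 123699.6 CPM in PLL and 34453, 35663 and 29976 CPM in aFM. The lowest PLL library was above the highest aFM library. The log2 fold change was 1.69 ± 0.40 (SE; edgeR adjusted p = 0.0205), 3.23-fold, and 1.77 without PLL replicate A. It made up 10.9% ± 4.03 (SD, n = 3) of annotated counts in PLL and 3.52% ± 0.155 (SD, n = 3) in aFM. DZ libraries held 37.9 to 512 CPM and NY libraries 7127 to 8214 CPM, so both PLL and aFM were above the other groups. The call was lost without PLL replicate C and without each aFM replicate in turn, with log2 fold changes between 1.42 and 1.77 over all left-out libraries. The opposite arm miR-9-3p was at 0 in all PLL and aFM libraries.

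miR-146b-5p, which restrains Toll-like receptor signalling through Traf6 and Irak1, was at 2695, 1281 and 3277 CPM in PLL and 717, 515 and 453 CPM in aFM. Each PLL library was above each aFM library. Its log2 fold change was 2.10 ± 0.50 (SE; edgeR adjusted p = 0.0205), and the call was lost without the same 4 libraries as that of miR-9-5p. miR-146a-5p has the same seed and differs by G18A and U21C, counted from the 5′ end with miR-146a-5p as the reference. It was at 1381, 1356 and 2132 CPM in PLL and 253, 368 and 967 CPM in aFM, also without overlap. Its log2 fold change of 1.57 ± 0.50 (SE) had an edgeR adjusted p of 0.0706. The ratio of miR-146b-5p to miR-146a-5p overlapped between the groups, from 0.944 to 1.95 in PLL and 0.469 to 2.83 in aFM.

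Of the 6 miRNAs listed as responsive to NF-kB, 3 were tested, 2 were called higher (6.06% of all tested were) and none lower. The median log2 fold change was 1.69 against 0.31 for all tested, and all 3 had PLL libraries above the aFM libraries, as had 21.2% of all tested. miR-155-5p of the same list had 23 counts in PLL and 15 in aFM and was not tested. The leukocyte markers miR-142a-3p, miR-142a-5p, miR-223-3p and miR-150-5p summed to 2083 to 3767 CPM in PLL and 1571 to 2427 CPM in aFM, and their part in these differences was not tested. miR-223-3p among them had 0, 21 and 19 counts in PLL and 2, 2 and 0 in aFM.

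miR-221-3p and miR-222-3p are neighbours on chromosome X, share the seed GCUACAU and repress the cell cycle inhibitor p27. miR-221-3p was at 4733, 3767 and 3818 CPM in PLL and 2109, 1654 and 1843 CPM in aFM, 1.14 ± 0.25 higher on the log2 scale (SE; edgeR adjusted p = 0.0141). miR-222-3p was at 2763, 2286 and 4581 CPM in PLL and 2783, 4596 and 4442 CPM in aFM, and overlapped (log2 fold change -0.30 ± 0.36, SE; edgeR adjusted p = 0.568). The ratio of miR-221-3p to miR-222-3p was 1.71, 1.65 and 0.833 in PLL and 0.758, 0.360 and 0.415 in aFM. Their proportion was thus higher in every PLL library, while only miR-221-3p was called by its level. The call for miR-221-3p was lost without either PLL replicate B or C and without each aFM replicate, and kept without PLL replicate A (0.95, edgeR adjusted p = 0.0355). It was also lost without a filter (edgeR adjusted p = 0.212) and with the 6 libraries alone (0.0657).

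miR-23a-3p and miR-23b-3p come from clusters with miR-27 and miR-24, and miR-23a-3p is known to restrain Runx2 and bone formation. miR-23a-3p was at 5321, 1356 and 2036 CPM in PLL and 759, 588 and 483 CPM in aFM. Its log2 fold change was 2.26 ± 0.49 (SE; edgeR adjusted p = 0.0141) and 1.41 without PLL replicate A (edgeR adjusted p = 0.0363). miR-23b-3p was at 7563, 1909 and 2704 CPM in PLL and 1096, 1360.3 and 1027 CPM in aFM. Its log2 fold change of 1.81 ± 0.48 (SE; edgeR adjusted p = 0.0340) was 0.92 without PLL replicate A, and no longer passed, while the call for miR-23a-3p was lost without aFM replicate B or C. The call for miR-23b-3p was lost when any of 6 libraries was left out, namely PLL A, each aFM library, NY A and NY C. It also ended with RLE factors and with the 6 PLL and aFM libraries alone (edgeR adjusted p = 0.0657). Both were higher in every PLL library, and the size of both rested on replicate A.

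Their cluster partners did not pass. miR-27a-3p was at 14560.5, 4420.4 and 4613 CPM in PLL and 7127, 4412 and 5772 CPM in aFM, and miR-27b-3p at 53713, 10775 and 9004 against 14380.2, 11545 and 11483. miR-24-3p, at 7722, 3391 and 3532 CPM in PLL and 3879.7, 3052 and 2689 CPM in aFM, overlapped too. Of the 6 tested members of the 3 families, 2 were called higher, against 6.06% of all tested, and the median log2 fold change was 0.79, or 0.05 without PLL replicate A. Within libraries, the ratio of miR-23a-3p to miR-27a-3p was 0.365, 0.307 and 0.441 in PLL and 0.107, 0.133 and 0.0838 in aFM. The ratio of miR-23b-3p to miR-27b-3p was 0.141 to 0.300 in PLL and 0.0762 to 0.118 in aFM. miR-23 was thus higher relative to its partner in PLL libraries A, B and C alike.

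miR-191-5p, a broadly expressed miRNA, was at 9465, 10423 and 14253 CPM in PLL and 6368, 6581 and 5077 CPM in aFM, a log2 fold change of 0.92 ± 0.24 (SE; edgeR adjusted p = 0.0317). DZ (9094 to 12404 CPM) and NY (8514 to 11016 CPM) lay near PLL, so aFM was the low group. miR-425-5p, its cluster neighbour, was at 272 to 628 CPM in PLL and 151 to 441 CPM in aFM and did not pass (edgeR adjusted p = 0.600). The call for miR-191-5p was lost when any of 9 of the 12 libraries was left out. It was lost too with RLE factors, upper quartile factors, library totals, no filter, a minimum count of 30 and the 6 libraries alone, with edgeR adjusted p-values up to 0.221.

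miR-210-3p, the main miRNA induced by hypoxia through HIF, was at 453, 603 and 318 CPM in PLL and 0, 110.3 and 60.4 CPM in aFM. These values rest on 54 PLL counts and 5 aFM counts, a pooled ratio of 7.86 (95% counting interval 3.17 to 25.2), with a fitted log2 fold change of 2.88 (edgeR adjusted p = 0.0317). DZ held 303 to 549 CPM and NY 232 to 732 CPM, so aFM was again the low group. miR-1895, a late-registered entry without a role stated here, was at 815, 1281 and 827 CPM in PLL and 379.5, 184 and 90.7 CPM in aFM. Its 113 PLL counts and 17 aFM counts gave a ratio of 4.84 (95% counting interval 2.89 to 8.60; edgeR adjusted p = 0.0340). The call for miR-210-3p was lost when any of 8 libraries was left out and that for miR-1895 when any of 10 was. Both calls also ended with RLE factors and without a filter, and that for miR-1895 with library totals, with an edgeR adjusted p of up to 0.111 for miR-1895.

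**Figure D4:**
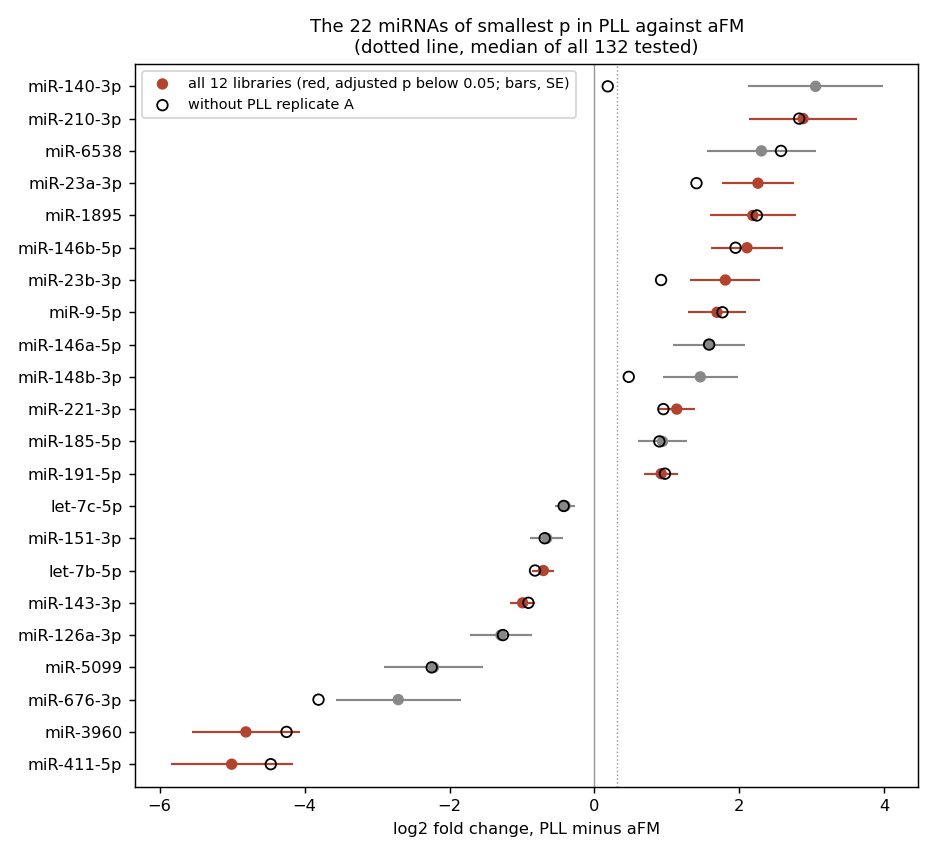
Log2 fold change, PLL minus aFM (horizontal axis), of the 22 miRNAs of smallest p. Filled points are the fit over all 12 libraries (red where the adjusted p was below 0.05) with bars of 1 SE, and open circles are the same contrast without PLL replicate A. The open circles of miR-140-3p, miR-148b-3p, miR-23b-3p and miR-23a-3p lie closer to 0 than the filled points, and that of miR-9-5p lies beside its filled point.

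The 10 miRNAs that followed in p did not pass the test. miR-140-3p led them with a log2 fold change of 3.05 ± 0.93 (SE; edgeR adjusted p = 0.0622), which was 0.18 without PLL replicate A (edgeR adjusted p = 0.710). The aFM libraries held 4681, 4853 and 3777 CPM, close to PLL B and C. miR-126a-3p, the miRNA of endothelial cells encoded within Egfl7, was at 1698, 1909 and 2291 CPM in PLL and 4723, 5110.5 and 4593 CPM in aFM (log2 fold change -1.29 ± 0.42, SE; edgeR adjusted p = 0.0740). Both groups were tight and did not overlap. In a fit of the PLL and aFM libraries alone miR-126a-3p passed (log2 fold change -1.43, edgeR adjusted p = 0.0250). It also passed with DESeq2 (log2 fold change -1.42, DESeq2 adjusted p = 0.0137). It did not pass with a replicate block (edgeR adjusted p = 0.0996) or without PLL replicate A (edgeR adjusted p = 0.0997). miR-151-3p was at 3646 to 4219 CPM in PLL and 5832 to 6397 CPM in aFM (-0.66 ± 0.22, log2, SE; edgeR adjusted p = 0.0834). The others, miR-5099, miR-676-3p, miR-6538, miR-148b-3p and miR-185-5p, had edgeR adjusted p-values from 0.0622 to 0.101. With the PLL and aFM libraries alone miR-5099 (edgeR adjusted p = 0.0417) and miR-6538 (edgeR adjusted p = 0.0346) passed too. There miR-140-3p, miR-151-3p, miR-148b-3p and miR-185-5p did not pass, and miR-676-3p was not tested.

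Some abundant miRNAs differed between the groups only when PLL replicate A was left out. miR-148a-3p, the most abundant miRNA over the 6 libraries, was at 174092, 45058 and 41233 CPM in PLL and 82612, 90151 and 93977 CPM in aFM. Replicate A was above and replicates B and C were below all aFM libraries. With all libraries its log2 fold change was -0.03 ± 0.44 (SE; edgeR adjusted p = 0.952), and without PLL replicate A it fell by 1.11 (edgeR adjusted p = 0.00178). miR-99a-5p, at 32977, 30295 and 24809 CPM in aFM, went from 0.52 ± 0.55 (log2, SE; edgeR adjusted p = 0.524) to -0.96 (edgeR adjusted p = 0.00297). miR-100-5p, miR-27b-3p, miR-10b-5p, miR-26a-5p and miR-125b-5p also changed sign, to between -1.05 and -0.049, and did not pass.

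The 10 most abundant miRNAs held 47.3% to 59.4% of annotated counts in PLL and 54.6% to 59.8% in aFM. They were miR-148a-3p, miR-21a-5p, miR-9-5p, miR-143-3p, miR-26a-5p, let-7i-5p, let-7c-5p, miR-486a-5p, miR-486b-5p and let-7b-5p. miR-486a-5p and miR-486b-5p had identical counts in every library, so they are 1 measurement. Of these miRNAs, 3 were called, miR-9-5p higher and miR-143-3p and let-7b-5p lower. miR-21a-5p was at 82087, 85319 and 98247 CPM in PLL and 65786, 78385 and 68443 CPM in aFM. In CPM its groups did not overlap, and its log2 fold change of 0.32 ± 0.16 (SE) had an edgeR adjusted p of 0.184. As a share of annotated counts it overlapped, at 6.00%, 9.60% and 10.8% in PLL A, B and C and 6.81%, 8.03% and 7.65% in aFM. The separation in CPM thus depended on the TMM factor of PLL replicate A, 0.731.

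Lists of miRNAs known to act on bone formation moved in mixed directions. Of 10 miRNAs listed as promoting osteogenesis, 5 were tested, 1 was called higher (miR-210-3p) and 1 lower (miR-3960), with a median log2 fold change of 0.32 against 0.31 for all tested. Of all tested miRNAs, 6.06% were called higher and 3.03% lower. Of 12 listed as restraining it, 6 were tested, 2 were called higher (miR-23a-3p and miR-221-3p) and none lower, with a median of 0.86, or 0.45 without PLL replicate A. In that list all 3 miRNAs without overlap, miR-23a-3p, miR-221-3p and miR-145a-5p, were higher in PLL, and 21.2% of all tested miRNAs lay wholly above and 17.4% wholly below. A median of a handful of members is given as a description.

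Marker miRNAs of several cell types were counted in both groups, and the source of these miRNAs was not tested. All 7 mesenchymal markers had counts and summed to 54055 to 67277 CPM in PLL and 79672 to 97287 CPM in aFM, without overlap, and miR-143-3p was the largest part of that sum in each library. Of the 9 tested miRNAs of the wider mesenchymal list 1 was called, miR-143-3p, a share near the 9.09% of all tested, and the median log2 fold change was 0.98, or 0.07 without PLL replicate A. In that list 7 had positive and 2 negative log2 fold changes. Its summed level overlapped, at 167072, 65754 and 59177 CPM in PLL A, B and C and 101968, 84525 and 87329 CPM in aFM. The lower marker sum in PLL was thus not a direction shared by the mesenchymal miRNAs. The erythroid markers miR-451a, miR-144-3p and miR-486a-5p summed to 46852 to 67537 CPM in PLL and 47925 to 81658 CPM in aFM. The endothelial markers miR-126a-3p and miR-126a-5p summed to 1698 to 2323 CPM in PLL and 4623 to 5147 CPM in aFM. miR-122-5p, the main miRNA of hepatocytes, was at 4167, 3943 and 7827 CPM in PLL and 14886, 15699 and 13507 CPM in aFM, and did not pass (log2 fold change -1.47 ± 0.79, SE; edgeR adjusted p = 0.207). In a fit of the PLL and aFM libraries alone miR-122-5p passed (log2 fold change -1.62, edgeR adjusted p = 0.0250). With DESeq2 it did not (log2 fold change -1.60, DESeq2 adjusted p = 0.128). The part of these markers in the differences above was not tested.

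Among the 7 epithelial markers miR-429-3p was at 0, and the others summed to 541 to 906 CPM in PLL and 295 to 907 CPM in aFM. The neural markers summed to 88042 to 126436 CPM in PLL and 33240 to 39092 CPM in aFM, most of it miR-9-5p. miR-128-3p, another neural marker, was at 2446, 2260.4 and 2609 CPM in PLL and 4470.1, 3015 and 3203 CPM in aFM, lower in every PLL library without passing the test (edgeR adjusted p = 0.156). These neural markers thus gave values in opposite directions.

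**Figure D5:**
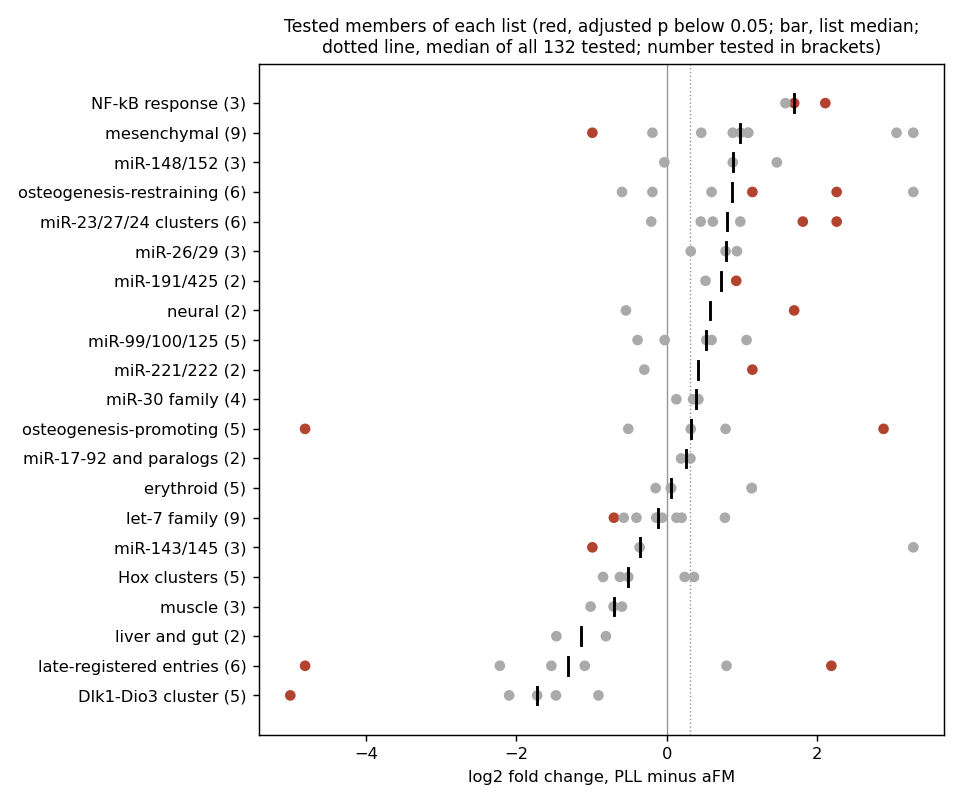
Log2 fold change, PLL minus aFM (horizontal axis), of the tested members of each list with at least 2 of them. Points are miRNAs, red where the adjusted p was below 0.05, black bars are list medians, and the dotted line is the median of all tested miRNAs (0.31). The 5 tested Dlk1-Dio3 members lie to the left of 0, and the osteogenesis-promoting list holds both miR-3960 far to the left and miR-210-3p to the right.

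Sequence features of the called miRNAs were set beside those of all tested miRNAs. Among the 109 tested miRNAs with a sequence, 15 seeds were shared by 2 or more members, 40 in all. In 5 of these families the members' log2 fold changes spanned more than 1, among them the let-7 family and the pair of miR-221-3p and miR-222-3p. Within the 15, miR-199a-3p and miR-199b-3p have the same sequence and fold change, as do let-7a-1-3p and let-7c-2-3p. Each of these pairs is 1 measurement. The median GC content was 47.8% in the 7 higher miRNAs with a sequence and 47.8% over all 109, and the rank correlation of GC content with the log2 fold change across the 109 was -0.04, a description over miRNAs of the same libraries. The letters GGAG, searched on the miRNA strand only, were in 1 of the 7 higher miRNAs (miR-1895), in 0 of the 2 lower ones and in 5.50% of the 109. The letters GGCU were in 2 of the 7 higher (miR-146b-5p and miR-210-3p), in 0 of the 2 lower and in 17.4% of the 109.

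Below the filter, 300 annotated miRNAs had a count in PLL or aFM, 81 of them only in PLL and 53 only in aFM. The annotated depth was 60436, 35375 and 28592 counts in PLL A, B and C. In aFM A, B and C it was 22903, 26559 and 29600 counts, so depth was not equal between the groups. In all 3 PLL libraries and no aFM library were 8 miRNAs, among them miR-134-5p (18 counts), miR-328-5p (11), miR-29b-3p (7), miR-31-5p (6) and miR-34a-5p, a target of p53 (6). In all 3 aFM libraries and no PLL library were miR-450b-5p (8 counts), miR-7069-5p (7) and miR-505-5p (5). With so few counts, these differences were near the limit of what the depth can show. The largest untested count in PLL was that of miR-199b-5p, with 157 counts in PLL and 19 in aFM, of which 146 lay in PLL replicate A.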

How the data were processed

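The deposited table gave whole-number counts per entry and library, made by the authors without normalization, as its values show. Per the submitters' processing notes, FastQC, STAR, StringTie and DESeq2 were used with genome build mm39; the miRNA caller, read filters, strand setting and handling of reads shared by copies are, in the sources used here, not given. The labels' protocols describe messenger RNA libraries, and the design text a small RNA kit. Of 3509 entries, 1978 carried mouse miRNA names. The 1531 predicted loci, 39.3% to 89.3% of a PLL or aFM library's counts, stayed out of library sizes and tests.

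Tests used edgeR 4.0.16 in R 4.3.3: filterByExpr (minimum count 10, total 15; 132 kept, 98.0% to 98.5% of the annotated counts of these libraries), TMM scaling, 1 quasi-likelihood fit of all 12 libraries with a term per group, the two-sided contrast PLL minus aFM, and Benjamini-Hochberg adjustment at 0.05. The SE was the log2 fold change over the square root of F. The fit was tested on simulated data, where it recovered 29% of 2-fold and 83% of 4-fold changes. A miRNA that did not pass may therefore still differ. Alternatives were other scaling, filters and DESeq2 1.42.0, the 6 libraries only, a replicate block, merged identical entries and each library left out. Groups came from the titles.

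Named were the called miRNAs, the next 10 by p, the 10 most abundant, of each list the members of smallest p and of highest level, and the 3 most variable in each group above 5000 CPM. Other miRNAs were named after their values were seen, the ratios too. The members and lists were chosen with earlier results of these data known. Sequences and hosts are RefSeq's (GRCm38.p6) and GENCODE's, and no coordinates are given since the authors' build differs.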

Additional observations from a re-analysis of the deposited data

Results flagged for a closer look

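Counts on predicted loci were not used in the comparison and were large in every library, with no control group to set them against. They made up 39.3%, 70.8% and 58.3% of the counts in PLL replicates A, B and C, and 89.3%, 84.5% and 80.1% in aFM replicates A, B and C, all far above the share that a count of 0 allows.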

How the results depend on the processing

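Values are counts of miRNAs called higher and lower in PLL, or log2 fold changes of PLL over aFM. The 8 higher and 4 lower calls became 4 higher with RLE factors, 82 higher and 2 lower with predicted loci in the fit, 5 higher with a minimum count of 30, 8 lower without a filter, 13 lower with DESeq2 and 8 lower with the 6 libraries alone. Calls ran from 0 (without aFM replicate B) to 10 higher and from 3 (without aFM replicate C) to 10 lower when single libraries were left out, with 10 and 10 without DZ replicate B. With a replicate block, 6 were higher and 4 lower, and 9 of these 10 were among the 12. The block ended the calls for miR-210-3p (edgeR adjusted p = 0.0612), miR-23b-3p (0.0612) and miR-1895 (0.0644) and added miR-146a-5p (log2 fold change 1.70, 0.0421), so that all 3 tested NF-kB members passed. Same-letter libraries did not deviate together (correlations -0.18, -0.20 and -0.12), so the letters are not taken to pair them. The difference in annotated share kept its direction without each library and with merged entries. With predicted loci, the lower miRNAs miR-143-3p (0.80), let-7b-5p (1.15), miR-126a-3p (0.54), let-7c-5p (1.43), miR-151-3p (1.17), miR-148a-3p (2.07), let-7i-5p (1.79), miR-127-3p (1.07), miR-615-3p (1.00), miR-200b-3p (1.27), miR-5119 (0.69), miR-122-5p (0.41), miR-181a-5p (1.40), miR-222-3p (1.52), miR-378a-3p (0.79) and miR-451a (1.71) turned positive, by construction of a median of 2.13 there. Values near 0 changed sign: miR-486a-5p, and with the same values miR-486b-5p, with RLE factors (-0.068), library totals (-0.0037), no filter (-0.042), the minimum count of 30 (-0.00097), DESeq2 (-0.068) and 6 libraries (-0.088); miR-30d-5p with RLE factors (-0.018), DESeq2 (-0.019) and 6 libraries (-0.044); miR-10b-5p with library totals (-0.090); miR-451a with the replicate block (0.085). Leaving out single libraries moved miR-148a-3p from -1.11 to 0.043, miR-26a-5p from -0.25 to 0.34, both miR-486-5p entries from -0.24 to 0.16, miR-10b-5p from -1.05 to 0.38, miR-92a-3p from -0.17 to 0.33, miR-27b-3p from -0.40 to 1.10, miR-30d-5p from -0.19 to 0.12, miR-100-5p from -0.26 to 1.19, miR-99a-5p from -0.96 to 0.65, miR-125b-5p from -0.049 to 0.69, miR-451a from -0.56 to 0.57 and the log2 ratio of miR-146b-5p to miR-146a-5p from -0.49 to 0.80. All but those of miR-486-5p, miR-92a-3p, miR-30d-5p, miR-451a and that ratio had their lowest value without PLL replicate A, and the cause was not tested. Leaving libraries out of the ratios was added after seeing the data. Under the minimum count of 30, miR-411-5p, miR-210-3p, miR-1895 and other scarce miRNAs were not tested. The 6 libraries alone left out miR-210-3p, and DESeq2 gave no adjusted p for miR-140-3p. Counts under about 100 per group, as for miR-411-5p and miR-210-3p, limit the precision of these ratios.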
